A study of Mus musculus with 42 samples.

Results

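The cholesterol genes of the mouse brain were followed through neuronal cultures of 3 genotypes and through peak lists from the adult hippocampus. The members were 29 named genes of cholesterol synthesis, its regulation, uptake and efflux, out of 52636 gene lines in the count files, and all 29 passed the filter on low counts. They were set by name and pathway step, with earlier results of these data known, so their comparison with all genes is a description. They comprise 7 genes of the mevalonate and isoprenoid steps (Acat2, Hmgcs1, Mvk, Pmvk, Mvd, Idi1 and Fdps), 11 genes of the squalene and sterol steps (Fdft1, Sqle, Lss, Cyp51, Tm7sf2, Msmo1, Nsdhl, Hsd17b7, Ebp, Sc5d and Dhcr7), 5 regulators of the SREBP system (Srebf1, Srebf2, Scap, Insig1 and Insig2) and 6 genes of transport and efflux (Stard4, Npc1, Abca1, Abcg1, Nr1h2 and Apoe). The first 2 groups are called the 18 synthesis genes.

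The brain makes nearly all of its own cholesterol, because lipoproteins of the blood do not cross the blood-brain barrier. Cells build it from acetyl-CoA through mevalonate, isoprenoids, squalene and lanosterol. When sterols are scarce, SCAP escorts SREBP proteins out of the endoplasmic reticulum, where INSIG proteins otherwise hold them, and the cleaved SREBP2 turns on the synthesis genes while SREBP1 mainly drives fatty acid synthesis. Astrocytes are a major source of cholesterol for neurons and export it on APOE particles through the ABCA1 and ABCG1 transporters, whose genes are targets of the oxysterol-sensing liver X receptors.

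RNA-seq was performed on primary neuronal cultures from the forebrain of E16 embryos, with 3 libraries each for euploid, Ts65Dn and Ts65Dn;Brwd1+/- embryos. Ts65Dn mice carry an extra copy of a segment homologous to human chromosome 21, which includes Brwd1, and Ts65Dn;Brwd1+/- mice carry in addition a heterozygous repro5 mutation of Brwd1, a bromodomain gene, to bring its functional copy number back. All genotypes were kept on the same mixed DBA/2J x B6EiC3Sn/J background. In the adult male hippocampus, SMARCA2/4 (the BAF chromatin remodelling ATPases) was profiled by ChIP-seq at 6 to 8 weeks in 4 replicates per genotype, each pooling tissue of 2 animals, and open chromatin by ATAC-seq of sorted NeuN+ nuclei in 3 replicates per genotype, but 1 peak list per genotype and assay was used. Per the study's methods, cortices of each embryo were dissociated individually and the cultures received AraC against dividing glia, whereas the labels describe the cultures as pooled male and female. None of the members (0 of 29) lies in the triplicated segment. Of the 2 on chromosome 17, Acat2 starts at 12942890 and Abcg1 at 31057675, both beyond the end at 8986648 of Pde10a, taken as the last triplicated gene there.

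Libraries held 17270070 to 25892802 counts in genes, and 17173 genes were tested. In the trisomy check, Brwd1 measured 85.9 to 93.2 CPM (counts per 1000000 counts in genes, with TMM scaling) in euploid, 125 to 129 in Ts65Dn and 124 to 146 in the libraries labelled Ts65Dn;Brwd1+/-, so that its RNA was not lower in the last group than in Ts65Dn. The Brwd1 counts thus do not bear out the label of these libraries, but counts over the whole gene do not separate the mutated allele from the others. By qPCR with other primers, the study reported that the cross restored Brwd1 levels in embryonic forebrain. Each direction drawn from these libraries rests on their label. The 3 libraries labelled Ts65Dn;Brwd1+/- also held 1409 to 1982 CPM of Xist and 0 of the Y-linked Eif2s3y, whereas the other 6 held at most 1.12 CPM of Xist and at least 78.7 of Eif2s3y. Sex and this genotype therefore cannot be told apart, which bears directly on the X-linked members Ebp and Nsdhl. Whether the genotype labels of these 3 libraries are right was not tested, so Ts65Dn;Brwd1+/- stands for their label in what follows. Nothing states which cultures came from separate litters, so p-values measure the spread between these libraries only.

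The cultures were also not alike in cell markers. The summed CPM of 8 neuron markers was 3672 to 4572 in euploid libraries, 980 to 2414 in Ts65Dn libraries and 3692 to 4682 in Ts65Dn;Brwd1+/- libraries, with 7 of 8 lower in Ts65Dn than in euploid and 7 of 8 higher in Ts65Dn;Brwd1+/- than in Ts65Dn. Of 8 astrocyte markers 7 were tested, and 4 were higher and 2 lower in Ts65Dn than in euploid, with sums of 2873 to 3625, 3465 to 4005 and 3347 to 3861 CPM in the 3 genotypes. All 8 diencephalon and midbrain markers were higher in Ts65Dn than in euploid, at 10.7 to 12.6, 204 to 298 and 13.4 to 17.6 CPM. Of 8 cortical neuron markers, 7 were lower in Ts65Dn than in euploid, at 568 to 775, 150.1 to 359 and 758 to 993 CPM. Because these are bulk samples, fewer cells of a type and less RNA per cell cannot be told apart.

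To show the regulatory DNA of the pathway, promoters of 300 bases (250 before to 50 after the annotated start) were taken from RefSeq on GRCm38.p6, with 33 windows for 23 of the 29 members. There were none for Fdps, Fdft1, Sqle, Stard4, Npc1 and Abcg1. Searched on both strands were a form of the sterol regulatory element bound by SREBP (TCACNCCAC), the CCAAT box bound by NF-Y (CCAAT), the GC box bound by SP1 (GGGCGG) and the E-box (CACGTG). Sc5d, Ebp and Cyp51 are printed as the synthesis genes with a window that had the lowest adjusted p in Ts65Dn vs. euploid, Dhcr7 and Insig2 as those with a window beside the euploid SMARCA2/4 peaks of lowest q-value, and Hmgcs1, chosen after its sequence was searched, as the only member whose window held the sterol element. Capitals mark these 4 motifs and none of the marked motifs overlap.
Sc5d (chr9:42264251-42264550, minus strand): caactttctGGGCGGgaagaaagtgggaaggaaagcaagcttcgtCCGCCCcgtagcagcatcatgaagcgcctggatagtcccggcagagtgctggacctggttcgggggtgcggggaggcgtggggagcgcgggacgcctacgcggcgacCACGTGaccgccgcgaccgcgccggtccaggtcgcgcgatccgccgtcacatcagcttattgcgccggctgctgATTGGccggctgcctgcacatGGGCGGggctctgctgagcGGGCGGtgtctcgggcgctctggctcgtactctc
Ebp (chrX:8193463-8193762, minus strand): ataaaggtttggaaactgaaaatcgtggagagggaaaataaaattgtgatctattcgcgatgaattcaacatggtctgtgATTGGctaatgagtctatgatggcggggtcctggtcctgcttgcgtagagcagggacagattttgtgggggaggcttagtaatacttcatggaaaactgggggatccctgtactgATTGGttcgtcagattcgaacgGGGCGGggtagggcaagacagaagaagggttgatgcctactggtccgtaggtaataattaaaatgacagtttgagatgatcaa
Cyp51 (chr5:4104648-4104947, minus strand): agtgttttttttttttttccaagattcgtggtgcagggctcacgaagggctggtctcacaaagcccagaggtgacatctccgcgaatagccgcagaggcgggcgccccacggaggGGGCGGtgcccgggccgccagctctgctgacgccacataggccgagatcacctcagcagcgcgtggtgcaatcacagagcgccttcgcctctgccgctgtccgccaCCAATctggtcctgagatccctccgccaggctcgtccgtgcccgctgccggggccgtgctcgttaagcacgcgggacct
Dhcr7 (chr7:143829964-143830263, plus strand): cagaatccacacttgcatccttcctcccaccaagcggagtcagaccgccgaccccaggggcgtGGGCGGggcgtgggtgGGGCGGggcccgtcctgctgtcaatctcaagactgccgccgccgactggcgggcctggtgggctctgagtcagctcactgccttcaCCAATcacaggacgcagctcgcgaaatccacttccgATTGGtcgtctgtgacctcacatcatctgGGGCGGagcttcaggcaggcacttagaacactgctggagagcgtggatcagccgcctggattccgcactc
Insig2 (chr1:121327629-121327928, minus strand): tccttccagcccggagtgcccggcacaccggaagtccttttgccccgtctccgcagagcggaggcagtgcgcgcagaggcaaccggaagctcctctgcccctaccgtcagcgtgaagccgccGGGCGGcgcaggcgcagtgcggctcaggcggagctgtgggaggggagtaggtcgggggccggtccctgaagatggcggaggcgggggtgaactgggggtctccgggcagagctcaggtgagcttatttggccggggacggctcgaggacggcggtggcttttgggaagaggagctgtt
Hmgcs1 (chr13:119690101-119690400, plus strand): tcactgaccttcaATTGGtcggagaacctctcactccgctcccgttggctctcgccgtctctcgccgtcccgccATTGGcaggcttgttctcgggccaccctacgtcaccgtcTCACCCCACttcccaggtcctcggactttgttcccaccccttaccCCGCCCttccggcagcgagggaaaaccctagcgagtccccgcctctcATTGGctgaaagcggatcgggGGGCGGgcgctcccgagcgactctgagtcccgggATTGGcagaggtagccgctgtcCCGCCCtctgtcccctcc
CCAAT and GC boxes were found in more windows than the sterol element, which has more letters and was also the rarest over all genes. The sterol element was in 1 of 23 members (4.35%). Among all 27025 genes with a window, 41.1% held a CCAAT box, 38.2% a GC box, 8.09% the E-box and 1.44% the sterol element in these letters. Among the synthesis genes with a window, 14 of 15 held a CCAAT box and 14 of 15 a GC box, and over the 23 members the counts were 18 and 20. The E-box was in 6 of 23 members (26.1%), 3 of them among the 15 synthesis genes. The Hmgcs1 window held the sterol element at base 114 with 4 CCAAT and 3 GC boxes around it, and Mvk had the most CCAAT boxes in a window, with 5. The windows of Apoe and Nr1h2 held none of the 4 motifs. A match is a description of letters and not a bound site, and a window without one says nothing about binding.

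Levels differed widely between the members. Per kilobase of exon, mean euploid levels were 1293 CPM for Apoe, 143 for Srebf1, 125 for Hmgcs1, 106 for Abca1, 67.3 for Srebf2 and 56.5 for Sqle, and the lowest were 4.16 for Ebp, 1.81 for Idi1 and 1.26 for Fdps. The apolipoprotein gene thus stood far above every enzyme on this scale, and Hmgcs1 was the highest of the 18 synthesis genes. Idi1 and Fdps values rest on few counts, and 26.7% of the Fdps exon bases are shared with Gm43738 on the same strand.

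The first comparison asked what the trisomy changes. Most synthesis genes fell and most transport genes rose in Ts65Dn vs. euploid cultures. Of the 18 synthesis genes, 14 were lower and 1 was higher, and their median log2 fold change was -0.69, beside 0.04 for all tested genes. Of the 6 transport and efflux genes, 4 were higher and 0 lower, with a median of 0.42, and of the 5 regulators Srebf1 alone was called, as higher. Over all 29 members, 6 were higher and 14 lower at an adjusted p under 0.05 (edgeR quasi-likelihood test, Benjamini-Hochberg), where 25.6% of all tested genes were higher and 21.1% lower. The summed CPM of the 18 synthesis genes was 2026, 1920 and 1614 in the euploid libraries and 1403, 1338 and 997 in the Ts65Dn libraries, so the groups did not overlap. Ts65Dn replicate 3 had the lowest sum of synthesis genes and also the lowest sum of neuron markers (980 CPM, against 2146 and 2414). Without that library, 1 synthesis gene was higher and 13 were lower, with a median of -0.56. Without euploid replicate 2, 9 synthesis genes were lower in place of 14 (4 of the mevalonate and isoprenoid steps and 5 of the squalene and sterol steps), and without euploid replicate 1, 11 were lower. The part of the neuron markers in this result was not tested.

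**Figure D1:**
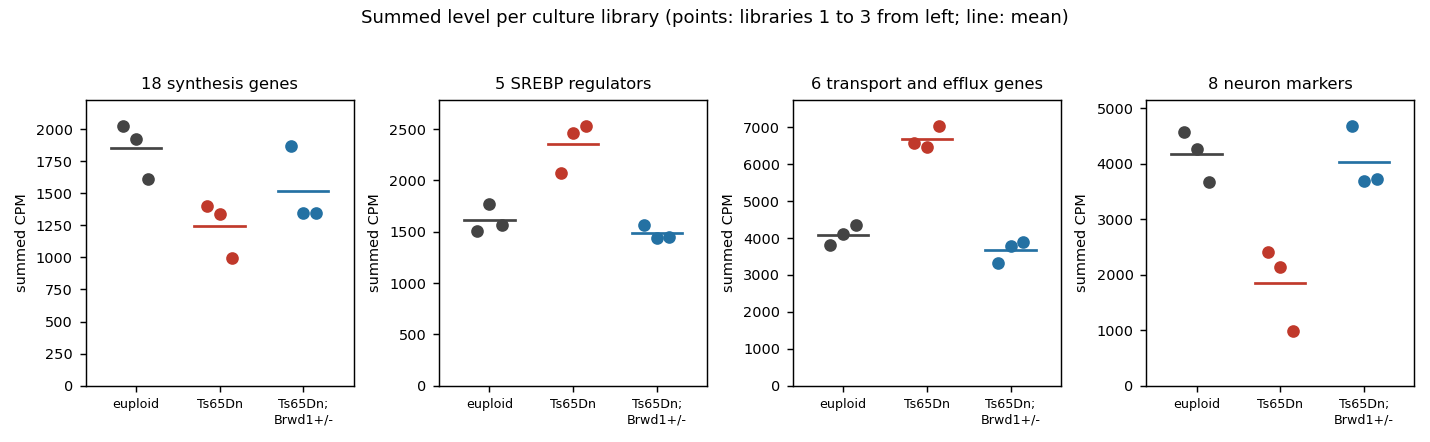
Summed CPM (vertical axes, from 0) of the 18 synthesis genes, the 5 SREBP regulators, the 6 transport and efflux genes and the 8 neuron markers in each of the 9 culture libraries, as points for libraries 1 to 3 from left with the mean as a line. In Ts65Dn the synthesis genes sum to 997 to 1403 and the transport genes to 6457 to 7042, against 1614 to 2026 and 3817 to 4341 in euploid.

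In the mevalonate and isoprenoid steps, 6 of 7 genes were lower in Ts65Dn than in euploid, with a median log2 fold change of -0.89. Acat2, the cytosolic thiolase that joins 2 acetyl-CoA, measured 53.2, 49.9 and 41.1 CPM in euploid and 32.9, 27.2 and 17.7 in Ts65Dn. All 3 Ts65Dn libraries lay below the euploid ones, with a log2 fold change of -0.89 ± 0.20 (SE) and an adjusted p of 0.00569. Its near-identical paralogue Acat3 makes the split of reads between both uncertain. Hmgcs1, which makes HMG-CoA, fell to 0.616 times its euploid level (log2 -0.70 ± 0.20, adjusted p = 0.0155). The kinase gene Pmvk changed least among those that fell, by -0.38 ± 0.10 on the log2 scale. Mvd (-1.0), the mevalonate diphosphate decarboxylase gene, Idi1 (-0.94), the isopentenyl diphosphate isomerase gene, and Fdps (-1.09), which makes farnesyl diphosphate, fell to about the same extent, with adjusted p of 0.0149, 0.0195 and 0.0182. Mvk, the mevalonate kinase gene, was not called, at 28.0 to 37.7 CPM in euploid and 25.3 to 31.6 in Ts65Dn, and its groups overlapped.

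In the squalene and sterol steps, 8 of 11 genes were lower and 1 was higher. Sc5d, the sterol C5 desaturase gene, had the lowest adjusted p of the synthesis genes. It measured 129, 107 and 106 CPM in euploid and 72.8, 74.9 and 64.5 in Ts65Dn (log2 fold change -0.69 ± 0.10, adjusted p = 0.000575). Every Ts65Dn library was below every euploid library. Cyp51, the lanosterol 14-demethylase gene, fell from 147, 125 and 108 to 81.0, 80.2 and 57.3 CPM, a log2 fold change of -0.80 ± 0.17 (adjusted p = 0.00433). Lss, whose product closes squalene epoxide into lanosterol, measured 49.3, 56.6 and 44.8 CPM in euploid and 37.6, 36.2 and 26.8 in Ts65Dn (-0.58 ± 0.14, adjusted p = 0.00607). In both genes the groups did not overlap, and Ts65Dn replicate 3 was the lowest library. The X-linked Nsdhl, a gene of C4 demethylation, fell from 55.7, 52.1 and 43.7 to 33.1, 29.7 and 16.8 CPM (-0.93 ± 0.23, adjusted p = 0.00878), and both groups carried Y-linked RNA, so this contrast was not split by sex.

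The squalene synthase gene Fdft1 (-0.83, adjusted p = 0.0141) and the 7-dehydrocholesterol reductase gene Dhcr7 (-0.83, adjusted p = 0.0157) fell to 0.562 times the euploid level, while the C4 methyl oxidase gene Msmo1 (-0.53, adjusted p = 0.049) and the 3-ketosteroid reductase gene Hsd17b7 (-0.35, adjusted p = 0.0113) fell less. The call for Msmo1 was lost without euploid replicate 1 or 2, Ts65Dn replicate 2 or 3, or Ts65Dn;Brwd1+/- replicate 2. Those for Mvd, Fdps, Fdft1 and Dhcr7 were lost without euploid replicate 2, and those for Hmgcs1 and Idi1 without euploid replicate 1. Of Fdft1's exon bases, 18.3% lie opposite Ctsb, and the strand setting of the counting is not stated. Not called were Sqle, the squalene epoxidase gene and the highest of this group, at 278 to 337 CPM in euploid and 266 to 301 in Ts65Dn, and Tm7sf2, a sterol reductase gene, at 23.9 to 29.8 and 14.8 to 23.9. The exception in direction was Ebp, the X-linked sterol isomerase gene. It measured 9.85, 10.6 and 8.33 CPM in euploid and 14.7, 13.6 and 14.3 in Ts65Dn, a rise of 1.48-fold (log2 0.57 ± 0.11, adjusted p = 0.00279) in the opposite direction to the enzymes around it.

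**Figure D2:**
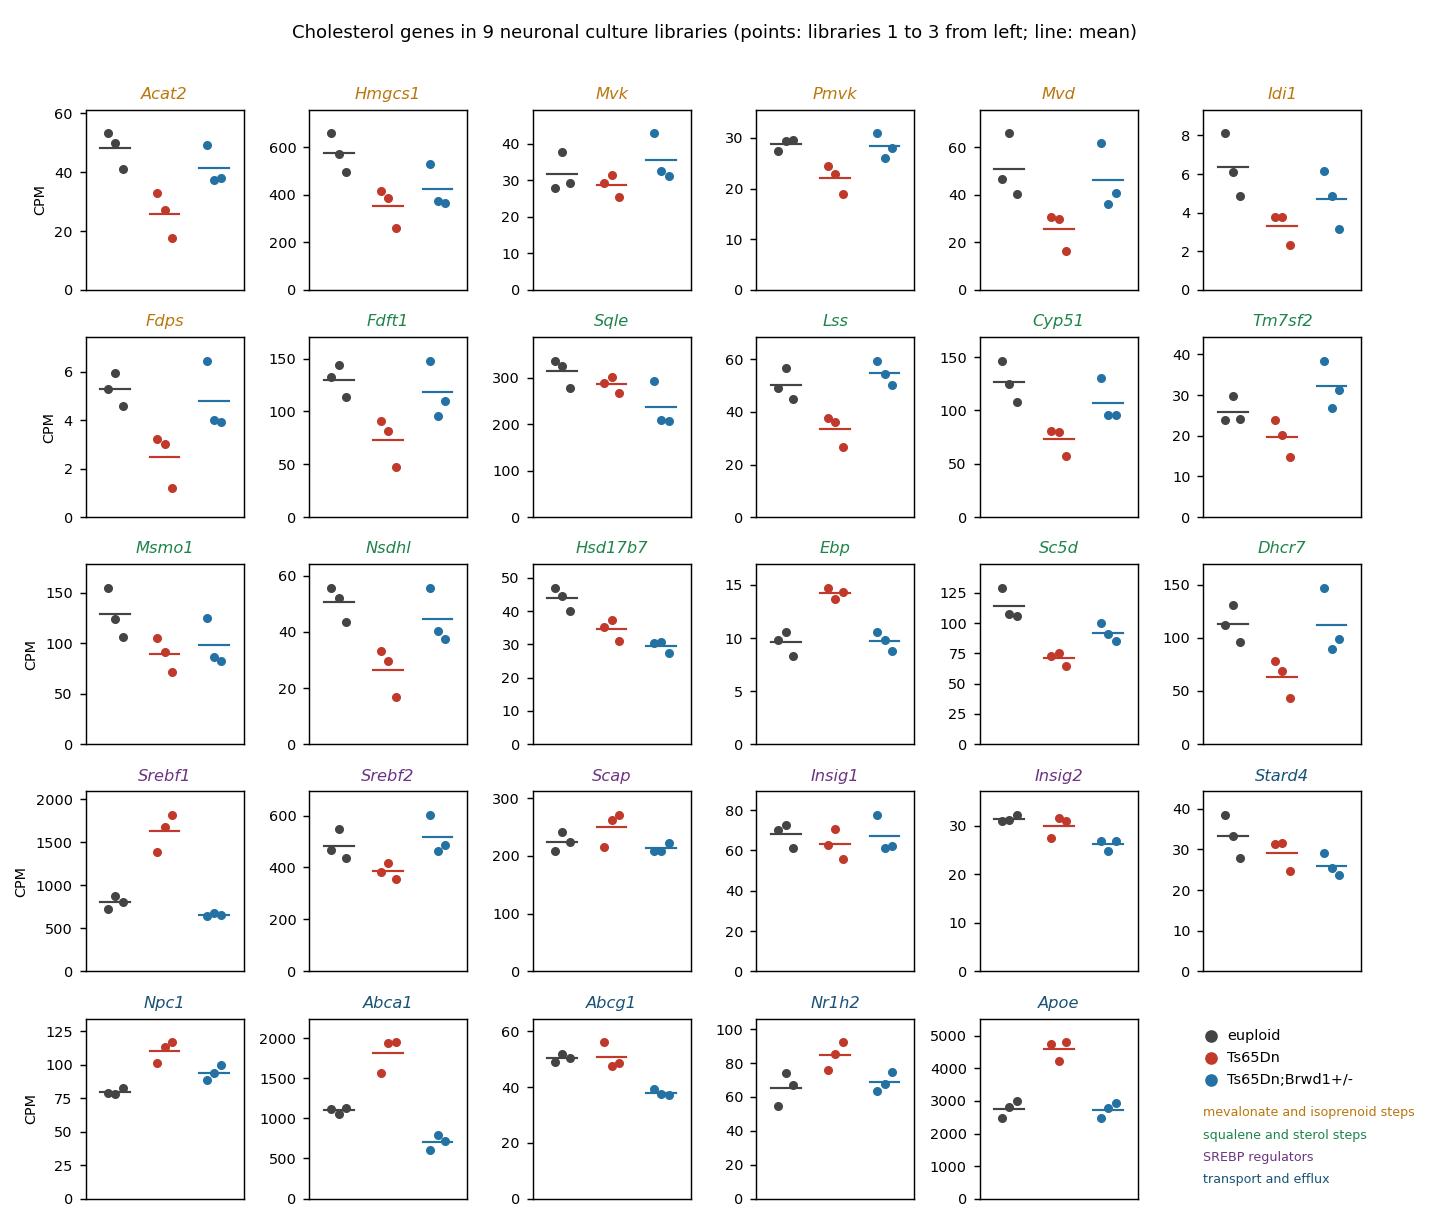
CPM (vertical axis of each panel, from 0) of the 29 members in the 9 culture libraries, with libraries 1 to 3 of each genotype from left and the mean as a line. In Ts65Dn most synthesis genes sit below their euploid libraries, whereas Ebp, Srebf1, Npc1, Abca1 and Apoe sit above theirs.

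Among the regulators, Srebf1 and Srebf2 had opposite signs. Srebf1, which encodes SREBP1, measured 731, 872 and 809 CPM in euploid and 1388, 1680.1 and 1819.8 in Ts65Dn. It rose 2.03-fold (log2 1.02 ± 0.11, adjusted p = 0.000115), with no overlap. Srebf2, which encodes SREBP2, measured 466, 549.8 and 436 CPM in euploid and 383, 418 and 356 in Ts65Dn. Its log2 fold change of -0.33 ± 0.13 missed the threshold (adjusted p = 0.055). It passed with a replicate block (-0.33, adjusted p = 0.0417), in all 8 fits with another tool, scaling, filter or term (adjusted p from 0.0119 to 0.0484, the block included) and in 3 of 9 fits that left out a library. The escort gene Scap measured 208, 242 and 225 CPM in euploid and 216, 263 and 271 in Ts65Dn. The retention genes stayed close together, with Insig1 at 69.9, 72.7 and 61.2 CPM in euploid and 62.6, 70.5 and 56.0 in Ts65Dn. Insig2 measured 31.1, 31.2 and 32.3 CPM in euploid and 27.5, 31.7 and 31.0 in Ts65Dn. None of Scap, Insig1 and Insig2 was called (adjusted p = 0.24, 0.484 and 0.481), and in each the groups overlapped.

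Apoe, Abca1, Npc1 and Nr1h2 rose, while Abcg1 and Stard4 were not called. Apoe, the main lipid carrier of brain lipoproteins, measured 2476, 2827 and 2988 CPM in euploid and 4739, 4242 and 4809.7 in Ts65Dn. This was a 1.66-fold rise (log2 0.73 ± 0.11, adjusted p = 0.000748) in the most abundant member. Abca1, the transporter that loads cholesterol onto APOE, rose from 1119, 1055 and 1126 to 1570.2, 1937 and 1949.6 CPM, by 1.65-fold (0.73 ± 0.12, adjusted p = 0.00119). Npc1, whose product moves cholesterol out of lysosomes, rose from 78.7, 77.8 and 82.2 to 101, 113 and 117 CPM (0.47 ± 0.08, adjusted p = 0.000956). In these 3 genes no Ts65Dn library overlapped a euploid one. Nr1h2, a liver X receptor gene, measured 54.9, 74.0 and 67.0 CPM in euploid and 76.0, 85.2 and 92.4 in Ts65Dn (0.37 ± 0.12, adjusted p = 0.0256), and its call was lost without euploid replicate 1 or 3, Ts65Dn replicate 2 or 3, or Ts65Dn;Brwd1+/- replicate 2. The Nr1h2 call was also lost with only the 6 libraries compared (adjusted p = 0.0602). Abcg1, the partner transporter of ABCA1, measured 48.9, 51.8 and 50.5 CPM in euploid and 56.1, 47.6 and 48.7 in Ts65Dn. Stard4, a cytosolic sterol carrier gene, measured 38.5, 33.3 and 27.8 CPM in euploid and 31.4, 31.7 and 24.7 in Ts65Dn, and neither Abcg1 nor Stard4 passed the test (adjusted p = 0.918 and 0.302).

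Markers of other cells moved in the same comparison. The sum of 8 endothelial markers was 81.7 to 90.6 CPM in euploid and 654 to 861 in Ts65Dn, but 6 of the 8 were under 1 CPM in every library, with Cldn5 at 0, and only 3 were tested (1 higher, 0 lower). The receptor gene Kdr made up nearly all of this sum (78.9 to 87.6 and 651 to 858 CPM), while Flt1 and Pecam1 were not called, so the sum describes 1 gene and not an endothelial class. The sum of 8 fibroblast and meningeal markers was 134 to 162 and 306 to 426 CPM (5 higher, 3 lower), and that of 8 microglial markers, with P2ry12 and Tmem119 under 1 CPM throughout, was 26.1 to 34.5 and 42.0 to 51.7 CPM (1 higher and 2 lower of 6 tested). All 8 cell cycle markers were higher in Ts65Dn, at 269.7 to 311 CPM against 192 to 202 in euploid. The part of these lists in the differences of the members was not tested.

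The second comparison asked what the Brwd1 mutation changes in trisomic cells, and it shares the Ts65Dn libraries with the first. In the libraries labelled Ts65Dn;Brwd1+/-, 11 of 18 synthesis genes were higher and 1 lower than in Ts65Dn, with a median log2 fold change of 0.53 beside 5e-04 for all tested genes. Of the transport genes 0 were higher and 4 were lower (median -0.36). Over all members 12 were higher and 6 lower, where 27.6% of all tested genes were higher and 30.5% lower. The result for the synthesis genes leaned on Ts65Dn;Brwd1+/- replicate 1, whose synthesis sum was 1865 CPM against 1344 and 1346 in the other 2 libraries of its genotype and 997 to 1403 in Ts65Dn. Without it only 3 synthesis genes were higher and 2 were lower (median 0.36), 0 of 7 mevalonate and isoprenoid genes were called, and 9 of the 29 members were called in place of 18. The same library had the highest neuron marker sum of the 9, at 4682 CPM, and the part of these markers was not tested. Oligodendrocyte lineage markers (6 higher and 2 lower of 8, from 197 to 227 CPM in Ts65Dn to 454 to 556) and cell cycle markers (7 higher and 0 lower of 8, from 269.7 to 311 CPM to 456 to 481) also moved in this contrast, and their part was not tested.

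The calls lost without that library were those of Acat2, Pmvk, Mvd, Fdps, Fdft1, Cyp51, Nsdhl, Dhcr7, Srebf2 and Npc1. With it, Acat2 measured 49.1, 37.4 and 37.9 CPM in Ts65Dn;Brwd1+/- (log2 fold change 0.68 ± 0.20 vs. Ts65Dn, adjusted p = 0.0159), above all 3 Ts65Dn libraries. Cyp51 measured 131, 95.6 and 95.3 CPM (0.56 ± 0.17, adjusted p = 0.0181). Nsdhl measured 55.5, 40.4 and 37.6 CPM (0.75 ± 0.23, adjusted p = 0.0188), in a contrast that sex also divides. The first library of each trio was the highest. Calls that held in every fit without 1 library were those of Lss, Sc5d, Tm7sf2, Ebp, Srebf1, Abca1, Abcg1 and Apoe. Lss measured 59.6, 54.5 and 50.2 CPM, 1.63-fold above Ts65Dn (0.71 ± 0.14, adjusted p = 0.00136). Sc5d measured 99.98, 90.7 and 85.3 CPM, 1.30-fold above (0.38 ± 0.10, adjusted p = 0.00871). Both lay above all Ts65Dn libraries, and Tm7sf2 was 1.64-fold higher (0.71 ± 0.18, adjusted p = 0.00717). Of the Tm7sf2 exon bases, 12.1% are shared with Vps51 on the same strand. Ebp was lower at 10.6, 9.85 and 8.73 CPM (-0.55 ± 0.11, adjusted p = 0.00198), opposite in sign to the 11 synthesis genes called higher.

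Of the remaining synthesis genes, 5 were higher and 6 were not called. Mvd (0.86), Fdps (0.95), Fdft1 (0.69), Dhcr7 (0.82) and Pmvk (0.36) were called as higher, with adjusted p from 0.013 for Dhcr7 to 0.027 for Fdps. With only the 6 libraries compared, 9 synthesis genes were called higher, and the calls of Fdps and Fdft1 were lost (adjusted p = 0.0593 and 0.0558). Hmgcs1 (0.26), Mvk (0.31), Idi1 (0.51), Msmo1 (0.14), Sqle (-0.28) and Hsd17b7 (-0.22) were not called, and the last 2 had negative signs.

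Srebf1 and Abca1 differed most from Ts65Dn among the members. Srebf1 measured 650.1, 678 and 656 CPM in Ts65Dn;Brwd1+/-, 0.406 times the Ts65Dn level (log2 -1.30 ± 0.11, adjusted p = 1e-05). Abca1 measured 611, 798 and 719.9 CPM, 0.390 times the Ts65Dn level (-1.36 ± 0.12, adjusted p = 1.21e-05). Apoe measured 2481, 2774 and 2932 CPM, 0.594 times the Ts65Dn level (-0.75 ± 0.11, adjusted p = 0.000295). Each of these genes lay below every Ts65Dn library by a wide gap. Abcg1 measured 39.2, 37.7 and 37.2 CPM, below the other genotypes alike (-0.42 ± 0.08, adjusted p = 0.00111). Npc1 measured 88.8, 93.5 and 99.4 CPM (-0.23 ± 0.08, adjusted p = 0.023), between the other genotypes, though this call was lost without Ts65Dn replicate 2 or 3 or Ts65Dn;Brwd1+/- replicate 1 or 2. The Npc1 call was also lost with no TMM factors, with no filter and with at least 10 counts in every library (highest adjusted p over the other settings 0.144). Nr1h2, at 63.7, 67.9 and 74.7 CPM, missed the threshold (adjusted p = 0.0508), but passed with a replicate block (adjusted p = 0.0112), in 3 of the 8 fits with another setting, the block included, and in 4 of 9 fits that left out a library. Stard4 measured 29.1, 25.3 and 23.7 CPM and was not called (adjusted p = 0.324). Srebf2 rose, at 602, 464 and 487 CPM (0.42 ± 0.13, adjusted p = 0.0146), opposite in sign to Srebf1. Scap, at 208, 209 and 222 CPM, Insig1, at 77.6, 61.1 and 62.2, and Insig2, at 27.0, 24.9 and 27.0, were not called (adjusted p = 0.0706, 0.55 and 0.0515). Beside the lower transport genes, 4 astrocyte markers were lower and 2 higher of 7 tested, among them the water channel gene Aqp4 (-1.65) and the astrocytic filament gene Gfap (-0.80) as lower and the glutamate transporter gene Slc1a2 (1.67) as higher, although the astrocyte sums of both groups overlapped. The fibroblast sum was 124 to 133 CPM (1 higher and 6 lower than in Ts65Dn), the endothelial sum, again mostly Kdr, 87.3 to 130 CPM (0 higher and 2 lower of 3 tested) and the microglial sum 18.2 to 25.1 CPM (0 higher and 5 lower of 6 tested). Their part was not tested.

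**Figure D3:**
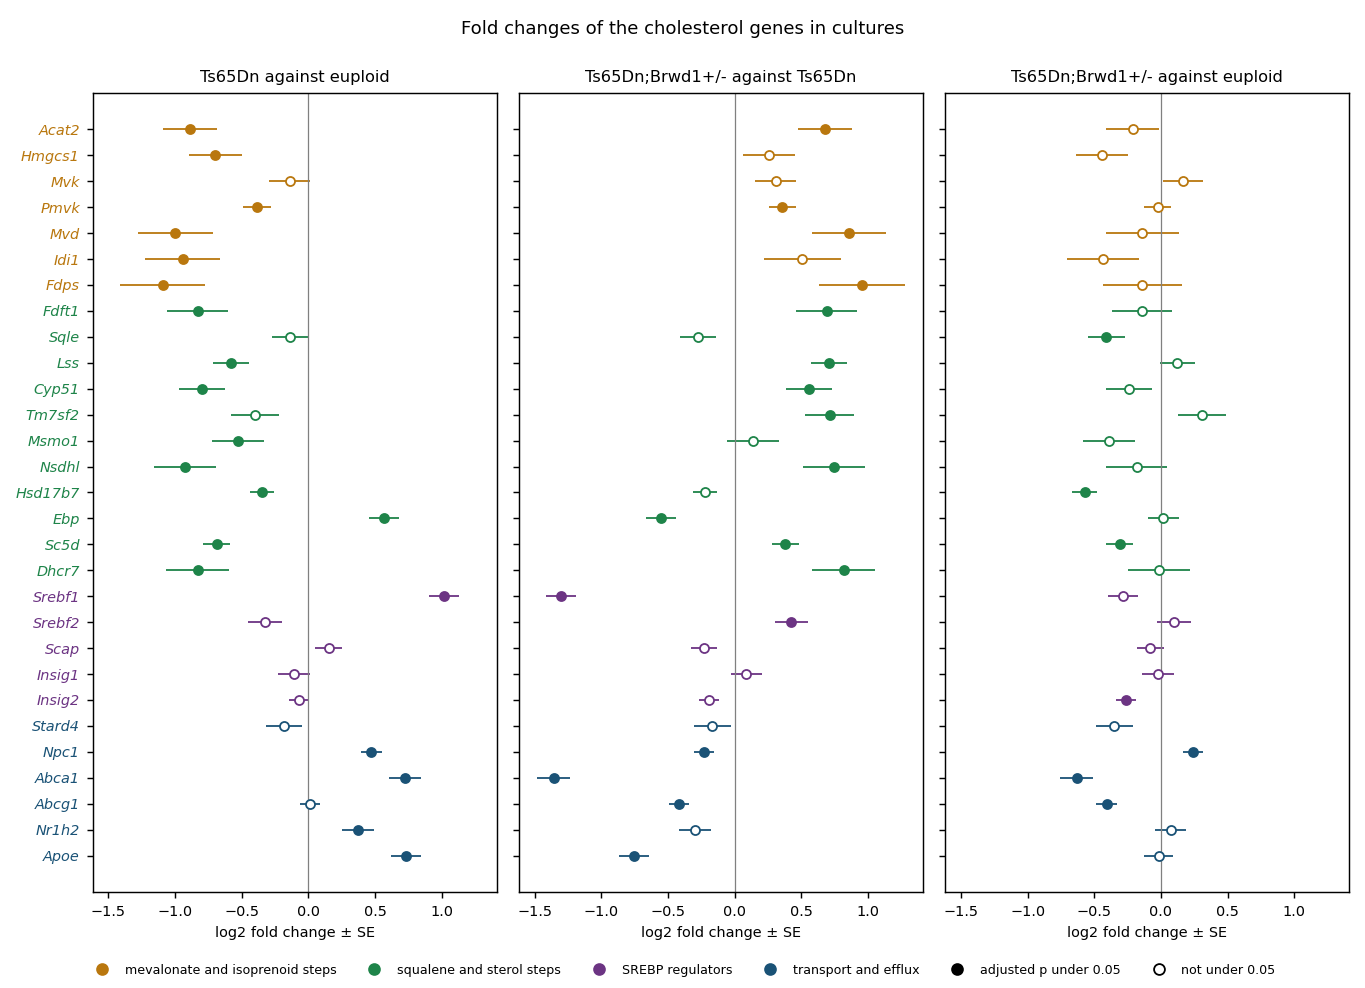
Log2 fold change (horizontal axes) ± SE of the 29 members, in rows by pathway step, in the 3 contrasts of the 9 culture libraries. Filled points have an adjusted p under 0.05, as in 20, 18 and 7 members from left to right, and Ts65Dn libraries enter both of the first 2 panels.

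The third comparison asked what still differs from euploid, and it shares libraries with both others. Of the 29 members, 7 were called in Ts65Dn;Brwd1+/- vs. euploid, 1 as higher and 6 as lower, where 29.2% of all tested genes were called in either direction and 15.2% as lower. The count was 12 with a replicate block and 15 with 1 factor of unwanted variation, and 5 at the lowest over the 8 other settings. A p above the threshold does not show that levels were equal, and the synthesis genes had a median log2 fold change of -0.16, beside -0.02 for all tested genes. Without Ts65Dn;Brwd1+/- replicate 1 this median was -0.40 with 5 synthesis genes lower, and the count over all members fell from 7 to 4 without euploid replicate 1, Ts65Dn replicate 2 or Ts65Dn;Brwd1+/- replicate 3, and to 3 without Ts65Dn;Brwd1+/- replicate 2. Abca1 (-0.63 ± 0.12, adjusted p = 0.00347) and Abcg1 (-0.41 ± 0.08, adjusted p = 0.00324), the efflux transporters, were below euploid, while their lipid acceptor Apoe was not called (-0.02, adjusted p = 0.926). Hsd17b7, at 30.3, 30.8 and 27.5 CPM against 47.0, 44.7 and 40.0 in euploid, was the synthesis gene furthest below euploid (-0.57 ± 0.09, adjusted p = 0.00133). Sqle (-0.41, adjusted p = 0.0482), Sc5d (-0.31, adjusted p = 0.0414) and Insig2 (-0.26, adjusted p = 0.0265) were lower and Npc1 (0.24, adjusted p = 0.0385) was higher. Of these calls, Sqle was lost in 6, Sc5d in 5 and Npc1 in 7 of 9 fits that left out a library, and Insig2 without euploid replicate 3 or Ts65Dn;Brwd1+/- replicate 2. Only the calls of Abca1, Abcg1 and Hsd17b7 held in all 9. Those of Sqle, Sc5d, Npc1 and Insig2 were each also lost in at least 1 fit with another setting (highest adjusted p 0.0518, 0.0588, 0.14 and 0.0822). Cell markers moved in this contrast too. All 8 cell cycle markers were higher than in euploid (median log2 fold change 1.36), 5 of 8 oligodendrocyte lineage markers were higher and 2 lower, 5 of 6 tested microglial markers were lower (median -3.92), 2 of 7 tested astrocyte markers were higher and 1 lower, 2 of 8 cortical neuron markers were higher and 1 lower, and 5 of 8 fibroblast markers were lower and 1 higher. The part of these lists was not tested.

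Other genes of the pathway were read as 2 whole lists. Of 8 lipogenic targets of SREBP1, 2 were higher and 2 lower in Ts65Dn than in euploid, and 3 were higher and 3 lower in Ts65Dn;Brwd1+/- than in Ts65Dn, so this list had no common direction. Of all tested genes, 46.7% and 58.1% were called in these contrasts. The stearoyl-CoA desaturase gene Scd1 measured 271, 253 and 264 CPM in euploid, 549, 561 and 617 in Ts65Dn and 344, 265 and 300.2 in Ts65Dn;Brwd1+/- (log2 1.13 and -0.93, adjusted p = 3.34e-05 and 4.05e-05). Its brain-enriched relative Scd2 measured 4316 to 4852, 5929 to 6301 and 4228 to 4408 CPM (0.41 and -0.50, adjusted p = 0.00555 and 0.0012). Elovl6, a fatty acid elongase gene, went the other way, at 74.6 to 99.8, 30.5 to 55.0 and 79.5 to 109.8 CPM (-0.91 and 1.01, adjusted p = 0.00628 and 0.00244).

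Of 11 other sterol genes, 6 were higher and 3 lower in Ts65Dn than in euploid, 3 were higher and 6 lower in Ts65Dn;Brwd1+/- than in Ts65Dn, and 0 were called in Ts65Dn;Brwd1+/- vs. euploid, beside 46.7%, 58.1% and 29.2% of all tested genes. Lipa, the lysosomal acid lipase gene that frees cholesterol from its esters, measured 30.6 to 32.6 CPM in euploid, 48.7 to 57.0 in Ts65Dn and 25.5 to 27.7 in Ts65Dn;Brwd1+/- (0.76 and -0.98, adjusted p = 6.65e-05 and 5.44e-06). Npc2, the lysosomal partner of NPC1, measured 119 to 134, 185 to 202 and 136 to 150 CPM (0.61 and -0.46, adjusted p = 0.000232 and 0.000574). Lrp1, a receptor for APOE particles, measured 1127 to 1418, 1906 to 2733 and 1166 to 1357 CPM (0.93 and -0.90, adjusted p = 0.00082 and 0.000467). For all 3 genes the Ts65Dn libraries stood above both other genotypes without overlap. For the 3 genes called lower in Ts65Dn than in euploid, Vldlr (log2 -0.99), Cyp46a1 (-0.65) and Mbtps2 (-0.52), they lay below both without overlap. How many of all tested genes show such gaps was not counted.

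In the adult hippocampus, SMARCA2/4 peaks named 12 of the 29 members (41.4%) in the euploid list, beside 38.6% of all tested genes, so the members were close to the background. In the Ts65Dn list 2 members (6.90%) were named, beside 4.14% of tested genes, and in the Ts65Dn;Brwd1+/- list 0 members, beside 4.89%. The lists held 22667, 1290 and 1873 peaks, each genotype gave 1 list, and the highest q-values were 0.153, 1.0 and 1.0, so the SMARCA2/4 lists hold peaks above the false discovery rate at which the methods say peaks were filtered. All 12 members named in the euploid list had a peak at a promoter, and 8 of them at a proximal promoter. Promoter peaks thus named 41.4% of the members, beside 34.3% of all tested genes. As 38.6% of tested genes had any peak, most genes named in that list had a promoter peak too. The 19 euploid member peaks had fold enrichments over input of 2.61 to 4.52, with a median of 3.73 beside 3.74 for the whole list.

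By role, euploid peaks named 4 of 5 regulators, 2 of 6 transport genes and 6 of 18 synthesis genes. These were Srebf1, Srebf2, Scap and Insig2 among the regulators, Abcg1 and Npc1 among the transport genes and Pmvk, Mvd, Fdft1, Tm7sf2, Sc5d and Dhcr7 among the synthesis genes. The lowest q-value was at Dhcr7, whose peak at chr7:143829750-143829953 (fold enrichment 3.97, q = 1.25e-05) ends 11 bases before the printed window. The Insig2 peak at chr1:121327550-121327619 (4.52, q = 0.000193) lies 10 bases from its printed window, inside the gene. Srebf2 had a peak at chr15:82146979-82147045 (4.01, q = 0.000242), at -254 bases from a start of the gene. Abcg1 had 4 peaks, the most of any member, with 3 at its promoter and 1 in the gene body, 9416 bases from the start. In the Ts65Dn list, the peak at Npc1 (fold 3.87, q = 0.0872) and the peak at Apoe (3.70, q = 0.293) did not pass a q-value of 0.01, which 20.9% of that list passed, and their fold enrichments were near the list's median of 3.7. Members with and without a euploid SMARCA2/4 peak were both found among the called genes of the cultures. In Ts65Dn vs. euploid, 2 were higher and 5 lower of 12 with a peak, and 4 higher and 9 lower of 17 without. In Ts65Dn;Brwd1+/- vs. Ts65Dn, 7 were higher and 3 lower of 12 with a peak, and 5 higher and 3 lower of 17 without. These counts were not tested against each other.

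**Figure D4:**
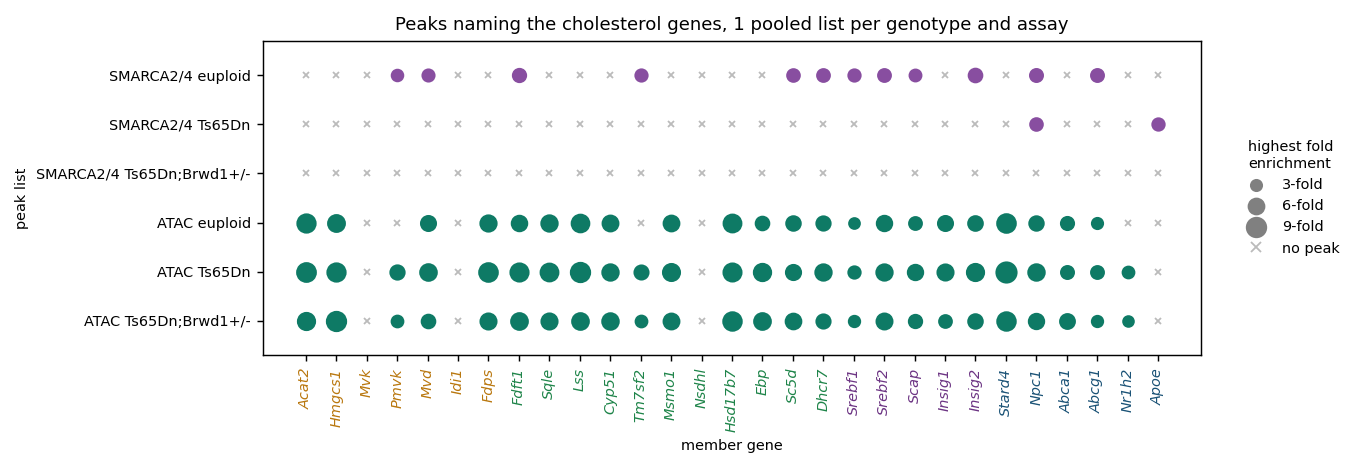
Peaks naming each of the 29 members (horizontal axis) in the 6 peak lists (vertical axis), with point size for the highest fold enrichment and a cross where no peak names the gene. SMARCA2/4 peaks name 12, 2 and 0 members in the lists of euploid, Ts65Dn and Ts65Dn;Brwd1+/- mice, and ATAC peaks name 22, 25 and 25.

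Neuronal open chromatin was found at most members in every genotype. ATAC peaks named 22 members (75.9%) in the euploid list, 25 (86.2%) in Ts65Dn and 25 (86.2%) in Ts65Dn;Brwd1+/-, beside 53.3%, 66.0% and 65.6% of all tested genes. The lists held 15521, 29195 and 30244 peaks, so the shorter euploid list also named fewer genes overall. Not named in any list were Apoe, Idi1, Mvk and Nsdhl, and the euploid list also lacked Nr1h2, Pmvk and Tm7sf2. When any peak from 3000 bases before a gene to its end was counted, whatever gene it named, only Apoe lacked one in Ts65Dn and in Ts65Dn;Brwd1+/-. Over the 22 members with a promoter peak in all 3 lists, the median highest fold enrichment was 5.61 for euploid mice, 6.86 for Ts65Dn and 6.12 for Ts65Dn;Brwd1+/-. Over all member peaks, the medians were 5.61, 5.63 and 4.50, beside 4.01, 4.19 and 3.6 for the whole lists, so the order of the genotypes depended on which peaks were taken. With 1 list per genotype these values have no replicate error. Of the 19 euploid SMARCA2/4 member peaks, 6 (31.6%) overlapped a euploid ATAC peak by at least 1 base, beside 26.5% of all 22667 peaks. ATAC peaks overlapped 5 of the 6 printed windows in all 3 lists and that of Ebp in 2 of them.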

How the data were processed

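RNA-seq counts per gene were deposited by the authors, who per the methods aligned reads to mm10 with HISAT2 and counted them with featureCounts, although each file ends in 5 lines of a different counter that name no gene. These lines held 37.45 to 40.04% of the summed counts of each file, which were assigned to no gene and left out. Counts were fitted with edgeR 4.0.16 in R 4.3.3 (filterByExpr, TMM, quasi-likelihood F-test, all 9 culture libraries in 1 fit, genotype as the only term), with Benjamini-Hochberg adjustment over 17173 genes. SE is the log2 fold change divided by the square root of F. CPM are TMM-scaled. Deviations from the genotype means of same-numbered euploid and Ts65Dn libraries correlated at 0.205, 0.363 and 0.456 over tested genes. No label states a pairing. These values cannot establish one, because the deviations within a genotype depend on each other, so the fit reported did not use it. The authors used pairwise DESeq2 after RUVr. DESeq2 1.42.0, 1 RUVr factor, RLE factors, no TMM factors, other filters, only the 6 libraries compared, a replicate block and leaving out each library were alternatives.

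Peaks were called by the authors with MACS on mm10. Fold enrichment ratios, q-values and the named gene are as deposited, and how replicates were combined is not given in the sources used here. Of 28022 transcripts named by peaks, 99.0% lay inside the annotated gene on GRCm38. Values in every library were given for the 10 members called in the first 2 contrasts with the lowest adjusted p, and for all regulators and transport genes. From each further pathway list, the 3 genes of lowest adjusted p in Ts65Dn vs. euploid were named with CPM. Of the other sterol genes, those called lower were named too. The members do not hold every gene of the pathway. The members and lists were chosen with earlier results of these data known. The fit was tested on simulated data.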

Additional observations from a re-analysis of the deposited data

How the results depend on the processing

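Over the 29 members and the 8 other settings that kept all libraries of the contrast (another tool, scaling, filter or term), 215 of 232 fold changes in Ts65Dn vs. euploid kept their direction and side of the threshold, 211 of 232 in Ts65Dn;Brwd1+/- vs. Ts65Dn and 204 of 232 in Ts65Dn;Brwd1+/- vs. euploid. Members called in Ts65Dn;Brwd1+/- vs. euploid numbered 7, but 12 with a replicate block, 15 with 1 RUVr factor and 5 at the lowest. In the other contrasts the block gave 21 (20 without) and 23 (18 without) called members. In Ts65Dn vs. euploid, where same-numbered deviations correlated positively, the block added the call of Srebf2 and changed no other call of a member. In the contrasts with Ts65Dn;Brwd1+/-, same-numbered deviations correlated at -0.348 to 0.393 with euploid and -0.29 to 0.486 with Ts65Dn. There, not every library correlated best with its own number. Leaving out 1 library gave 15 to 22 called members in Ts65Dn vs. euploid, 9 to 21 in Ts65Dn;Brwd1+/- vs. Ts65Dn and 3 to 10 in Ts65Dn;Brwd1+/- vs. euploid, and medians of the synthesis genes of -0.82 to -0.56, 0.36 to 0.69 and -0.40 to -0.11. With only peaks of a q-value under 0.01, 0 members in place of 2 had a Ts65Dn SMARCA2/4 peak. Signs turned only in members that had not passed the threshold. Abcg1 in Ts65Dn vs. euploid (0.012) became -0.014 with DESeq2, -0.01 with RLE factors, -0.013 with no TMM factors, -0.025 with no filter, -0.03 with at least 10 counts in every library and -0.023 with only the 6 libraries compared. With no TMM factors, Ts65Dn;Brwd1+/- vs. euploid became 0.016 for Pmvk, 0.024 for Dhcr7, 0.019 for Insig1 and 0.025 for Apoe. Leaving out 1 library, the ranges that crossed 0 were -0.066 to 0.057 for Abcg1 and -0.244 to 0.002 for Mvk in Ts65Dn vs. euploid, -0.068 to 0.271 for Msmo1 and -0.023 to 0.174 for Insig1 in Ts65Dn;Brwd1+/- vs. Ts65Dn, and in Ts65Dn;Brwd1+/- vs. euploid -0.021 to 0.308 for Mvk, -0.117 to 0.005 for Pmvk, -0.438 to 0.086 for Mvd, -0.12 to 0.096 for Ebp, -0.287 to 0.103 for Dhcr7, -0.051 to 0.2 for Srebf2, -0.168 to 0.03 for Insig1, -0.037 to 0.173 for Nr1h2 and -0.104 to 0.021 for Apoe. The cause of these moves was not tested. With 3 libraries per genotype and 1 peak list per genotype and assay, small differences and differences between lists are limited in precision.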
